A study of Mus musculus with 16 samples.

Results

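Neutrophils carry their antimicrobial proteins in granules and in the cytosol, and 10 mouse genes that encode such proteins or mark the cell were followed here in liver. They are 10 of the 55416 genes listed in each count file, found by matching the Ensembl identifiers of the files to their symbols. S100a8, S100a9, Csf3r and Retnlg stand for mature neutrophils, Prtn3, Elane and Mpo for the primary (azurophil) granule, and Ngp, Camp and Ltf for the secondary (specific) granule. The livers came from 16 C57BL/6J wild-type mice, 4 in each of 4 groups. All were injected through the tail vein with an adenovirus at 8 weeks of age, gavaged 18 h and 5 h before the liver was taken, 4 days after the injection, and fasted for the last 5 h. Ad-FAT10 Pema mice received the adenovirus that overexpresses FAT10 and 1 mpk of pemafibrate, an agonist of the nuclear receptor PPARα. Ad-FAT10 CMC mice received the same adenovirus and the vehicle CMC. Ad-CTRL Pema and Ad-CTRL CMC mice received a control adenovirus with pemafibrate or with CMC. FAT10, encoded by Ubd, is a ubiquitin-like modifier that targets proteins to the proteasome. No group without an adenovirus was analysed here, the mice kept their own Ubd gene, and RNA was taken from whole liver, so the cells that carried each transcript were not separated.

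As background, neutrophils are made in the bone marrow in a fixed order of gene programmes. Primary granule genes such as Mpo, Elane and Prtn3 are transcribed at the promyelocyte stage, secondary granule genes such as Ltf, Camp and Ngp at the myelocyte and metamyelocyte stages, and both are largely silent by the time a neutrophil enters the blood. S100a8 and S100a9, Csf3r and Retnlg are still transcribed in the circulating cell. The RNA of the 3 classes therefore differs with the age of the cells.

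The promoters of 4 genes are shown because these genes sit as adjacent pairs in the genome, S100a8 beside S100a9 and Prtn3 beside Elane, and because the members of the second pair differed most in level. The files name no coordinates, and the sequences are RefSeq's on GRCm38.p6, not the GRCm39 build that the submitters' processing notes name. Each runs 5′ to 3′ on the gene's own strand from 250 bases before the start of the gene to 50 after it. The S100a8 window is chr3:90668821-90669120 on the plus strand, the S100a9 window chr3:90695672-90695971 on the minus strand, the Prtn3 window chr10:79879417-79879716 and the Elane window chr10:79886062-79886361, both on the plus strand. Capitals mark GAGGAA or its reverse complement, the core letters read by PU.1, a transcription factor of myeloid cells.
S100a8: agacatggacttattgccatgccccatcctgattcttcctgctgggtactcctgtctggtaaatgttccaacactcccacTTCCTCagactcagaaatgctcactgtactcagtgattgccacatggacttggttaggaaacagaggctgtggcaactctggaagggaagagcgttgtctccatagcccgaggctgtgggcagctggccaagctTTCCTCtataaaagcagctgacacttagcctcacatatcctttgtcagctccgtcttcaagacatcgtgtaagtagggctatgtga
S100a9: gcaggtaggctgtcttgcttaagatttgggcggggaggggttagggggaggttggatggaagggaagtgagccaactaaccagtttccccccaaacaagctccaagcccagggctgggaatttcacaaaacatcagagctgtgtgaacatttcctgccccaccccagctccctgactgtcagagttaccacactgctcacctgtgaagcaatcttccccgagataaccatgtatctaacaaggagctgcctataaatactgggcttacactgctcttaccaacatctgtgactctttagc
Prtn3: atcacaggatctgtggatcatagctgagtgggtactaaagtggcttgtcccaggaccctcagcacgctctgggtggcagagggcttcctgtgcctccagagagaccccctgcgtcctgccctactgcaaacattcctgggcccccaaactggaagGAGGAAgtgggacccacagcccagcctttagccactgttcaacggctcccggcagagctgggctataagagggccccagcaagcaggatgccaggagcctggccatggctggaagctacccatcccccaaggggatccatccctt
Elane: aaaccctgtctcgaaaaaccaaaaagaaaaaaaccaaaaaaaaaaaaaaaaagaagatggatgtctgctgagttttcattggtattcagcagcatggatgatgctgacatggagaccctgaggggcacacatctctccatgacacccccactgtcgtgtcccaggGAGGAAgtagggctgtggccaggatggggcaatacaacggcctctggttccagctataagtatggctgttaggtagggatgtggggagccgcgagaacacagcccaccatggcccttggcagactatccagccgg
These letters occurred in 6 of the 10 genes' windows and in 28.3% of all 32851 mouse promoters. A C/EBP motif (TTGCNNAA, both strands) occurred in 4 of the 10 and in 10.8% of all promoters, and a Gfi1 motif (AAATCA, both strands) in 1 of the 10 and in 14%. A match describes the letters and is no evidence of binding.

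The labels were checked first. Ubd averaged 459 ± 64.2 CPM in Ad-FAT10 Pema livers, 236 ± 116 CPM in Ad-FAT10 CMC livers, 27.5 ± 14.4 CPM in Ad-CTRL Pema livers and 11.2 ± 3.05 CPM in Ad-CTRL CMC livers (SD, n = 4 each), where CPM is the count scaled to a common library size after TMM scaling. Pdk4, a target of PPARα, averaged 452 ± 125 CPM in Ad-FAT10 Pema livers against 7.57 ± 3.01 CPM in Ad-FAT10 CMC livers, and 716 ± 164 CPM in Ad-CTRL Pema livers against 3.28 ± 0.504 CPM in Ad-CTRL CMC livers. Libraries held 18663498 to 28898229 counts. A count of 0 allows up to 3 counts, which at these depths is 0.104 to 0.161 CPM, for counting error alone. Of 14770 genes with at least 0.422 CPM in at least 4 libraries, 7 were among the 10, and Elane, Mpo and Camp were below that level. Retnlg reached it in 8 of 8 Ad-FAT10 livers and 1 of 8 Ad-CTRL livers, Ngp in 7 of 8 Ad-FAT10 livers and Ltf in 6 of 8 Ad-FAT10 livers, with none of the Ad-CTRL livers for these last 2 genes. These 3 passed through the groups in which they were high, so counts over the tested genes are given as description and not as support. Gene tests are edgeR quasi-likelihood tests over all 16 libraries, with a call where the p adjusted by Benjamini and Hochberg across the tested genes was under 0.05, and log2 changes carry their SE.

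A pair of libraries stood apart in these genes. In Ad-FAT10 CMC replicates 1 and 2 the 10 genes held 2022 and 4004 counts, against 1111 and 1215 counts in Ad-FAT10 CMC replicates 3 and 4. They held 453 to 935 counts in Ad-FAT10 Pema livers, 141 to 239 in Ad-CTRL Pema livers and 200 to 349 in Ad-CTRL CMC livers. Both libraries enter every result. For the 7 of the 10 genes in the main test, values without them are added where they change a call. Elane, Mpo and Camp were not fitted without them, and for single genes outside the 10 no such values are given. Whether the calls of all these other genes depend on these 2 livers was not tested.

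**Figure D1:**
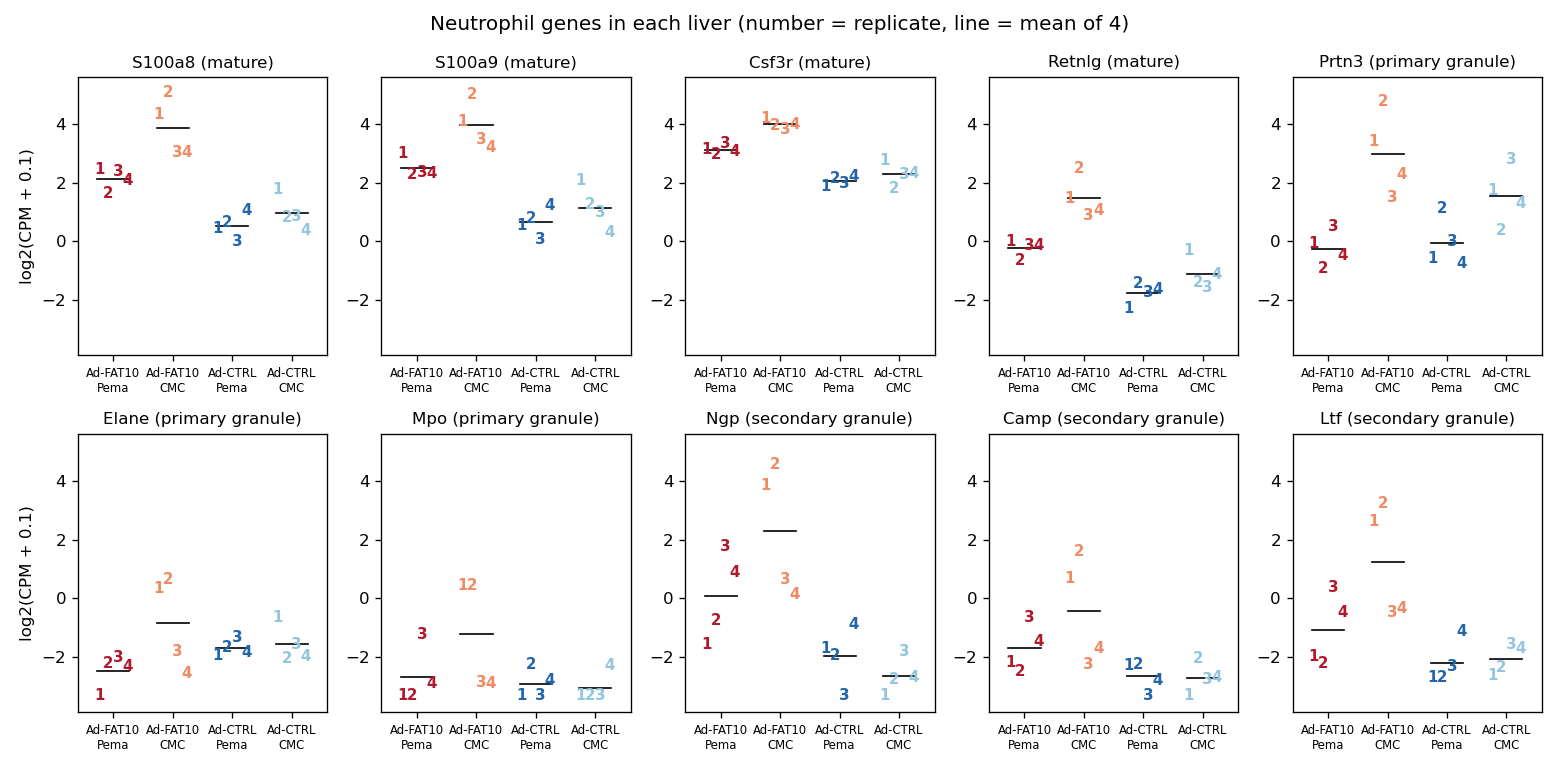
Level of each of the 10 genes in each of 16 livers, as log2(CPM + 0.1), with 1 panel per gene. Each digit is the replicate number of 1 liver and the line is the mean of 4; the mature genes of all Ad-FAT10 CMC livers lie above all Ad-CTRL CMC livers, and Ngp, Camp and Ltf are highest in Ad-FAT10 CMC replicates 1 and 2.

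Under CMC, the 4 mature genes were higher in Ad-FAT10 than in Ad-CTRL livers, by 3.22-fold for Csf3r and by 7.51-fold to 8.97-fold for the other 3 genes, and no liver of one group overlapped with the other group. The secondary granule genes Ngp and Ltf were higher by larger fitted amounts but were near 0 in Ad-CTRL CMC livers. Prtn3, of the primary granule, was higher on average with overlapping groups. S100a8 and S100a9 encode the 2 subunits of calprotectin, a calcium- and zinc-binding complex of the neutrophil cytosol. S100a8 had 20.2, 33.7, 8.05 and 8.10 CPM in the 4 Ad-FAT10 CMC livers, against 3.34, 1.66, 1.71 and 1.18 CPM in the 4 Ad-CTRL CMC livers, in replicate order. S100a9 had 17.1, 32.4, 11.1 and 9.19 CPM in Ad-FAT10 CMC livers, against 4.10, 2.26, 1.89 and 1.13 CPM in Ad-CTRL CMC livers. Both subunits were highest in Ad-FAT10 CMC replicate 2, and the lowest Ad-FAT10 CMC liver was above the highest Ad-CTRL CMC liver for each. S100a8 rose by 3.16 ± 0.43 (adjusted p = 2.45e-05) and S100a9 by 2.91 ± 0.39 (adjusted p = 2.27e-05).

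Csf3r encodes the receptor for G-CSF, the main growth factor of the neutrophil lineage. Csf3r had 18.0, 15.4, 14.1 and 15.7 CPM in Ad-FAT10 CMC livers, against 6.62, 3.42, 4.80 and 4.88 CPM in Ad-CTRL CMC livers. Replicates 1 and 2 did not stand apart in Csf3r, which rose by 1.69 ± 0.16 (adjusted p = 6.65e-07). Retnlg, a resistin-like secreted protein of mouse neutrophils, had 2.66, 5.43, 1.73 and 1.96 CPM in Ad-FAT10 CMC livers, against 0.703, 0.277, 0.231 and 0.360 CPM in Ad-CTRL CMC livers. It rose by 2.93 ± 0.40 (adjusted p = 2.32e-05), again with the highest value in Ad-FAT10 CMC replicate 2 and without overlap. Without Ad-FAT10 CMC replicates 1 and 2 the fitted rises were smaller but still called, at 2.02 for S100a8 (adjusted p = 0.000174), 2.10 for S100a9 (adjusted p = 0.000239) and 2.24 for Retnlg (adjusted p = 0.000156), while Csf3r was at 1.58 (adjusted p = 1.95e-05). In bulk liver, more cells of a type and more RNA per cell cannot be told apart.

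The granule genes were less even. Ngp, a cathelicidin-related protein of the secondary granule, had 14.3, 23.7, 1.44 and 0.995 CPM in Ad-FAT10 CMC livers, from 313, 620, 40 and 29 counts, against 0, 1, 4 and 1 counts in Ad-CTRL CMC livers. Ltf, the iron-binding protein lactoferrin, had 6.00, 9.25, 0.614 and 0.686 CPM in Ad-FAT10 CMC livers, from 131, 242, 17 and 20 counts, against 1, 2, 5 and 4 counts in Ad-CTRL CMC livers. Replicates 1 and 2 thus lay far above replicates 3 and 4, and all 4 lay above every Ad-CTRL CMC liver. The fitted changes were 6.97 ± 1.28 for Ngp (adjusted p = 0.00035) and 4.73 ± 0.97 for Ltf (adjusted p = 0.000891), and their size is uncertain because Ad-CTRL CMC livers held 6 Ngp counts and 12 Ltf counts in all. Without Ad-FAT10 CMC replicates 1 and 2, Ngp was still called at 3.91 (adjusted p = 0.00978), and Ltf was not, at 2.06 (adjusted p = 0.0583). Camp, the cathelicidin precursor, had 33, 77, 3 and 6 counts in Ad-FAT10 CMC livers against 0, 3, 1 and 1 counts in Ad-CTRL CMC livers. It was too low for the main test, and in a fit of all 29478 genes with a count its change was 4.13 ± 0.74 (edgeR adjusted p = 1.19e-05). That fit was more lenient than the main one, with Ngp at 6.98 ± 0.77 (adjusted p = 1.4e-10) in it. Its adjusted p values are therefore not comparable with those of the main fit.

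Of the primary granule genes, Prtn3 encodes proteinase 3, a serine protease. Prtn3 had 10.5, 27.4, 2.74 and 4.73 CPM in Ad-FAT10 CMC livers, against 3.22, 1.20, 6.79 and 2.36 CPM in Ad-CTRL CMC livers. The groups overlapped, since Ad-CTRL CMC replicate 3 was above Ad-FAT10 CMC replicates 3 and 4. The change of 1.73 ± 0.59 was called (adjusted p = 0.0254), but it was 0.77 without Ad-FAT10 CMC replicate 2 (adjusted p = 0.246) and 0.11 without Ad-FAT10 CMC replicates 1 and 2 (adjusted p = 0.889). The call was also lost without Ad-CTRL CMC replicate 1, 2 or 4 (adjusted p = 0.0528, 0.0765 and 0.0668), with a robust fit (adjusted p = 0.0582) and with only the 2 groups in the fit (adjusted p = 0.0506). Elane, encoding neutrophil elastase, had 25, 38, 5 and 2 counts in Ad-FAT10 CMC livers against 9, 3, 5 and 3 counts in Ad-CTRL CMC livers (1.44 ± 0.55, adjusted p = 0.053 in the fit of all genes). Mpo, encoding myeloperoxidase, had 27, 33, 1 and 1 counts in Ad-FAT10 CMC livers against 0, 0, 0 and 2 counts in Ad-CTRL CMC livers (adjusted p = 0.000511 in the same fit). Its counts in Ad-FAT10 CMC replicates 3 and 4 were within those of Ad-CTRL CMC livers. All 7 tested genes were called higher in this comparison, beside 22.5% of all tested genes called higher, and 6 of the 7 did not overlap, beside 20.3% of all tested genes.

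**Figure D2:**
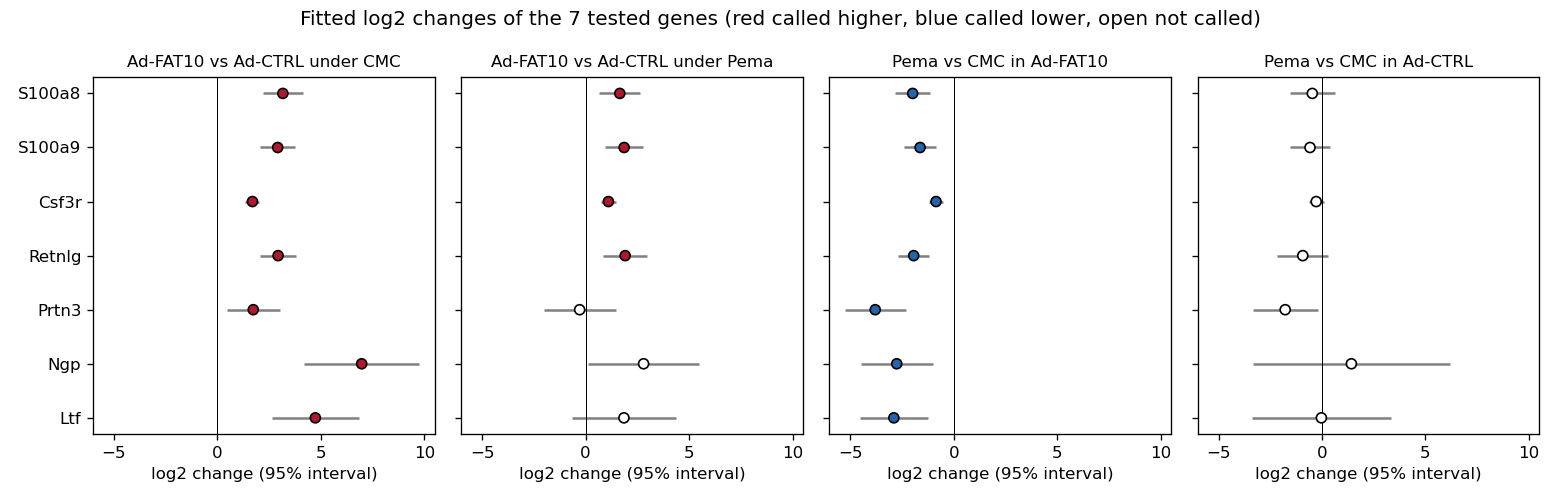
Fitted log2 change of the 7 tested genes in 4 comparisons, with 95% intervals; filled points passed an adjusted p of 0.05 and open points did not. All 7 points are called higher for Ad-FAT10 against Ad-CTRL under CMC and lower for Pema against CMC in Ad-FAT10, while none is called for Pema against CMC in Ad-CTRL.

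Pemafibrate was next compared with CMC within Ad-FAT10 livers, the question named in the series title being which genes respond to the drug when FAT10 is overexpressed. The 4 mature genes and Prtn3 were lower in every Ad-FAT10 Pema liver than in any Ad-FAT10 CMC liver, with Prtn3 lower by 13.9-fold and Csf3r by 1.82-fold. Ngp and Ltf were lower on average with overlapping groups. S100a8 had 5.36, 3.01, 5.10 and 4.09 CPM in Ad-FAT10 Pema livers, below the lowest Ad-FAT10 CMC liver at 8.05 CPM. S100a9 had 7.95, 4.73, 5.04 and 4.87 CPM in Ad-FAT10 Pema livers, below the lowest Ad-FAT10 CMC liver at 9.19 CPM. S100a8 fell by 1.99 on the log2 scale (SE 0.39, adjusted p = 0.000917) and S100a9 fell by 1.63 (SE 0.35, adjusted p = 0.00219). Without Ad-FAT10 CMC replicates 1 and 2 neither was called, at -0.86 for S100a8 (adjusted p = 0.0646) and -0.83 for S100a9 (adjusted p = 0.101).

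Csf3r had 8.68, 7.77, 9.99 and 8.29 CPM in Ad-FAT10 Pema livers and fell by 0.86 (SE 0.15, adjusted p = 0.000289). Retnlg had 0.887, 0.534, 0.800 and 0.812 CPM in Ad-FAT10 Pema livers and fell by 1.94 (SE 0.34, adjusted p = 0.000398). Prtn3 had 0.849, 0.419, 1.30 and 0.617 CPM in Ad-FAT10 Pema livers, from 22, 11, 44 and 19 counts, and fell by 3.80 (SE 0.67, adjusted p = 0.00042). The highest of these Prtn3 values was below the lowest Ad-FAT10 CMC value, at 2.74 CPM. These 3 genes were called lower also without Ad-FAT10 CMC replicates 1 and 2, at -0.76 for Csf3r (adjusted p = 0.01), -1.26 for Retnlg (adjusted p = 0.0103) and -2.18 for Prtn3 (adjusted p = 0.0173).

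Ngp had 0.231, 0.495, 3.29 and 1.72 CPM in Ad-FAT10 Pema livers, from 6, 13, 111 and 53 counts. Ltf had 0.154, 0.114, 1.19 and 0.617 CPM in Ad-FAT10 Pema livers, from 4, 3, 40 and 19 counts. For Ngp, Ad-FAT10 Pema replicates 3 and 4 were above Ad-FAT10 CMC replicates 3 and 4, while replicates 1 and 2 of the Ad-FAT10 CMC group were above all Ad-FAT10 Pema livers. Both genes were called lower, Ngp by -2.76 ± 0.80 (adjusted p = 0.0159) and Ltf by -2.90 ± 0.75 (adjusted p = 0.00768). Without Ad-FAT10 CMC replicate 2 the calls were lost, at -1.86 for Ngp (adjusted p = 0.109) and -2.09 for Ltf (adjusted p = 0.053), and without Ad-FAT10 Pema replicate 2 Ngp was at -2.49 (adjusted p = 0.0505). Without both Ad-FAT10 CMC replicates 1 and 2, Ngp was at 0.30 (adjusted p = 0.852) and Ltf at -0.24 (adjusted p = 0.876). With the 2 groups alone in the fit, adjusted p was 0.0788 for Ngp and 0.0508 for Ltf.

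The 3 genes below the main test had few counts with pemafibrate. Elane had 0, 3, 5 and 3 counts in Ad-FAT10 Pema livers, Mpo had 0, 0, 11 and 1 and Camp had 3, 2, 18 and 8. In the fit of all genes their changes against Ad-FAT10 CMC were -2.81 ± 0.60 for Elane (adjusted p = 0.000355), -2.55 ± 0.70 for Mpo (adjusted p = 0.00767) and -2.14 ± 0.53 for Camp (adjusted p = 0.00258). For all 3 genes the groups overlapped, since the high counts in the Ad-FAT10 CMC group came from replicates 1 and 2. These 3 genes were not fitted without those livers. The fit of all genes was again more lenient, with an adjusted p of 1.4e-08 for S100a8, against 0.000917 in the main fit. All 7 tested genes were called lower in this comparison, beside 12.5% of all tested genes, and 5 of the 7 did not overlap, beside 12.3%. Without Ad-FAT10 CMC replicates 1 and 2, 3 of the 7 were called lower. Over all tested genes 2178 were then called in either direction, against 3750 with all libraries, of which 1852 were lower.

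In Ad-CTRL livers none of the 7 genes was called with pemafibrate in either direction, beside 14.4% of all tested genes called lower and 16.2% called higher. By edgeR 1 of the 7, Prtn3, had an unadjusted p under 0.05 (0.0235), and DESeq2 also called none. S100a8 had 1.24, 1.44, 0.897 and 1.98 CPM in Ad-CTRL Pema livers and S100a9 had 1.35, 1.60, 0.947 and 2.25 CPM, both within or near the range of Ad-CTRL CMC livers. Csf3r had 3.52, 4.27, 3.84 and 4.54 CPM, and Retnlg had 0.104, 0.267, 0.199 and 0.220 CPM. The changes were -0.47 for S100a8 (95% interval -1.57 to 0.63), -0.58 for S100a9 (-1.57 to 0.41), -0.28 for Csf3r (-0.64 to 0.09) and -0.93 for Retnlg (-2.16 to 0.31). The interval of Retnlg holds the change called in Ad-FAT10 livers (-1.94), while those of S100a8, S100a9 and Csf3r end short of the changes called there (-1.99, -1.63 and -0.86). Those changes have errors of their own (SE 0.39, 0.35 and 0.15), so this is no test of a difference, which the interaction below gives. All 4 intervals hold both 0 and smaller falls, so a missed threshold does not show that Ad-CTRL livers failed to respond.

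Prtn3 had 0.570, 2.08, 0.897 and 0.484 CPM in Ad-CTRL Pema livers, and the highest of these was above the lowest Ad-CTRL CMC liver at 1.20 CPM. Its change was -1.78 ± 0.72 (adjusted p = 0.0701), which passed with library totals in place of TMM (-1.87, adjusted p = 0.0478), with no filter on low counts (-1.79, adjusted p = 0.00227) and with only the 2 groups in the fit (-1.79, adjusted p = 0.0191). It also passed in 4 of the 16 fits that each left out 1 library and without Ad-FAT10 CMC replicates 1 and 2 (-1.80, adjusted p = 0.0154). Ngp had 4, 3, 0 and 10 counts in Ad-CTRL Pema livers and Ltf had 1, 1, 2 and 8, levels at which a difference from Ad-CTRL CMC livers was not detectable. Elane had 3, 4, 6 and 4 counts, Camp had 2, 2, 0 and 1 and Mpo had 0, 2, 0 and 1.

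The difference between the 2 pemafibrate responses was tested itself as the interaction of adenovirus and drug. None of the 7 genes was called, beside 0.156% of all tested genes, which is 23 genes. By edgeR 2 of the 7 had an unadjusted p under 0.05, S100a8 at -1.52 (95% interval -2.90 to -0.13, adjusted p = 0.403) and Csf3r at -0.59 (-1.07 to -0.10, adjusted p = 0.353), and DESeq2 also called none. The fall in Ad-FAT10 livers was therefore not shown to differ from the change in Ad-CTRL livers for any of the 7. The 2 responses share no library, but each shares its CMC libraries with the adenovirus comparison under CMC.

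Under pemafibrate the mature genes were again higher in Ad-FAT10 than in Ad-CTRL livers, and the granule genes were not called. Csf3r was 2.15-fold higher (1.10 ± 0.16, adjusted p = 4.46e-05), S100a9 3.63-fold (1.86 ± 0.42, adjusted p = 0.00176), Retnlg 3.77-fold (1.91 ± 0.49, adjusted p = 0.00457) and S100a8 3.13-fold (1.65 ± 0.46, adjusted p = 0.00778). No Ad-FAT10 Pema liver overlapped with an Ad-CTRL Pema liver for any of the 4. They made 4 of the 7 tested genes called higher, beside 21.2% of all tested genes, and 4 of 7 without overlap, beside 18.9%. Prtn3 differed by -0.29 (adjusted p = 0.8) and Ltf by 1.85 (adjusted p = 0.21). Ngp differed by 2.80 ± 1.22 (adjusted p = 0.0746), which passed with DESeq2 (2.83, adjusted p = 0.0399), with library totals (3.17, adjusted p = 0.0301), with no filter on low counts (2.83, adjusted p = 0.00298) and with only the 2 groups in the fit (2.82, adjusted p = 0.0268). It also passed without Ad-FAT10 CMC replicates 1 and 2, which are in neither of these groups (2.82, adjusted p = 0.00886). Ngp did not pass with a replicate block (2.95, adjusted p = 0.0837). It passed in 4 of the 16 fits that each left out 1 library (1.99 to 3.56, highest adjusted p = 0.268). The groups overlapped, with Ad-FAT10 Pema replicate 1 at 0.231 CPM and Ad-CTRL Pema replicate 4 at 0.44 CPM.

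Ad-FAT10 Pema livers were also set against Ad-CTRL CMC livers, a comparison that shares each of its groups with one of those above. Csf3r (0.83, adjusted p = 0.000253), S100a9 (1.28, adjusted p = 0.0111), S100a8 (1.18, adjusted p = 0.031) and Ngp (4.22, adjusted p = 0.0238) were called higher, 4 of 7 beside 29.4% of all tested genes. Prtn3 was called lower (-2.06, adjusted p = 0.0184), 1 of 7 beside 25.2%. Retnlg (0.99, adjusted p = 0.0641) and Ltf (1.82, adjusted p = 0.193) were not called, and both passed without Ad-FAT10 CMC replicates 1 and 2 (adjusted p = 0.0176 and 0.0453). Retnlg passed also with library totals (1.27, adjusted p = 0.0129), with no filter on low counts (1.01, adjusted p = 0.0412) and with only the 2 groups in the fit (0.96, adjusted p = 0.0433). In the robust fit S100a8 and Ngp lost their calls (adjusted p = 0.0536 and 0.0593). Csf3r and S100a9 were called in every fit that left out 1 library, while S100a8 lost its call in 5 of the 16, Ngp in 4 and Prtn3 in 2. The highest adjusted p in these fits was 0.0916 for S100a8, 0.0991 for Ngp and 0.107 for Prtn3. The groups did not overlap for Csf3r, S100a9 and Ngp, but the share of all tested genes without overlap was not made for this comparison. For Ngp the gap was narrow, from 0.231 CPM (6 counts) in Ad-FAT10 Pema to 0.185 CPM (4 counts) in Ad-CTRL CMC livers. The groups overlapped for S100a8, with a lowest Ad-FAT10 Pema liver at 3.01 CPM against a highest Ad-CTRL CMC liver at 3.34 CPM. They overlapped also for Retnlg (0.534 against 0.703 CPM) and Ltf (0.114 against 0.231 CPM), given in the same way. For Prtn3 the highest Ad-FAT10 Pema liver was at 1.30 CPM against a lowest Ad-CTRL CMC liver at 1.20 CPM, again an overlap. Prtn3 averaged 0.797 ± 0.381 CPM in Ad-FAT10 Pema livers and 3.39 ± 2.41 CPM in Ad-CTRL CMC livers (SD, n = 4 each).

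Mature and immature genes were compared within each liver by the share of the 10 genes' counts that each class held. The secondary granule genes held 23.6% (exact 95% binomial interval 21.8 to 25.5) and 23.5% (22.1 to 24.8) in Ad-FAT10 CMC replicates 1 and 2. They held 5.40% (4.15 to 6.90) and 4.53% (3.43 to 5.85) in Ad-FAT10 CMC replicates 3 and 4. The intervals cover counting error only and those of the 2 pairs do not meet, so livers of one group differed in the make-up of these counts as well as in their number.

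In Ad-FAT10 Pema livers the secondary granule share was 2.07% (1.11 to 3.51), 3.97% (2.37 to 6.21), 18.1% (15.7 to 20.7) and 12.1% (9.74 to 14.9) in replicate order. It was 1.39% to 7.95% in Ad-CTRL Pema livers and 0.315% to 3.00% in Ad-CTRL CMC livers. The share therefore split both Ad-FAT10 groups, with Ad-FAT10 Pema replicates 3 and 4 between the 2 pairs of Ad-FAT10 CMC livers. Set against Csf3r, there were 0.798 and 1.53 Ngp counts per Csf3r count in Ad-FAT10 CMC replicates 1 and 2, and 0.102 and 0.0633 in replicates 3 and 4. In Ad-FAT10 Pema livers the same ratio was 0.0267, 0.0637, 0.329 and 0.208. Among the mature genes, S100a8 also split the Ad-FAT10 CMC livers, with 1.12 and 2.18 counts per Csf3r count in replicates 1 and 2. In replicates 3 and 4 there were 0.570 and 0.515, and in Ad-FAT10 Pema livers 0.387 to 0.618. The mature genes thus did not change as a single class.

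The primary granule share was 3.09% to 6.42% in Ad-FAT10 Pema livers, 7.38% to 19.7% in Ad-FAT10 CMC livers, 6.69% to 23.3% in Ad-CTRL Pema livers and 14.5% to 43.6% in Ad-CTRL CMC livers. Prtn3 held 68.8% to 100% of the primary granule counts in a liver. The lowest Ad-FAT10 CMC share was above the highest Ad-FAT10 Pema share, and the highest share of all was that of Ad-CTRL CMC replicate 3, with 147 Prtn3 counts and 5 Elane counts. The mature genes held 75.5% to 94.4% in Ad-FAT10 Pema livers, 56.8% to 87.2% in Ad-FAT10 CMC livers, 73.6% to 85.4% in Ad-CTRL Pema livers and 53.6% to 82.5% in Ad-CTRL CMC livers.

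**Figure D3:**
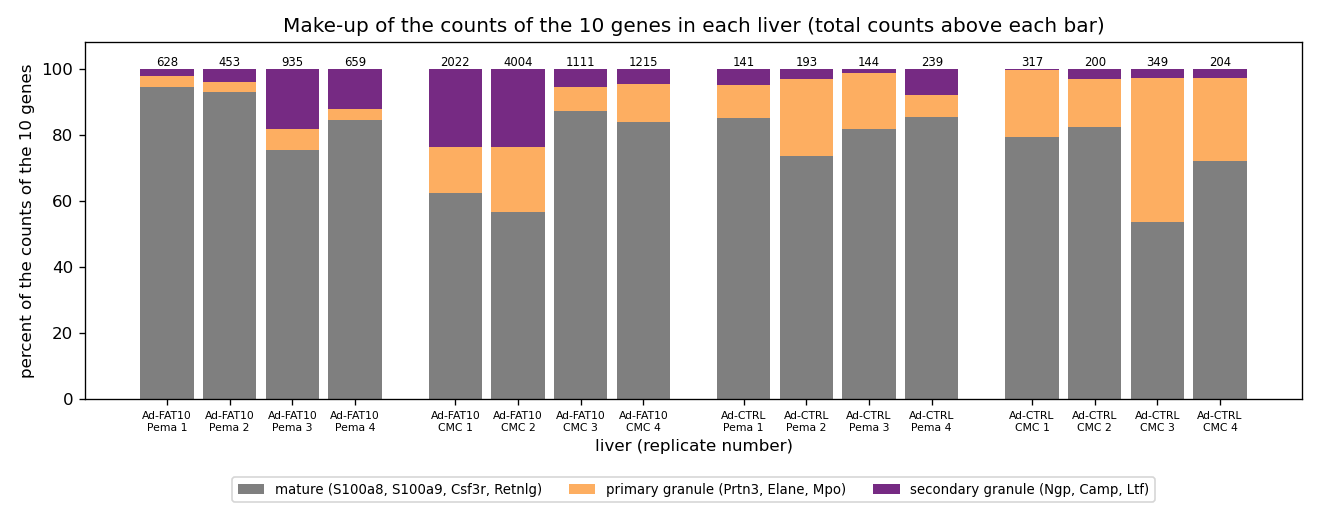
Percent of the 10 genes' counts held by the mature, primary granule and secondary granule genes in each of 16 livers, with the number of counts above each bar. The secondary granule part is largest in Ad-FAT10 CMC replicates 1 and 2 (23.6% and 23.5%), then in Ad-FAT10 Pema replicates 3 and 4 (18.1% and 12.1%).

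On a log scale, the mean log2 CPM of the mature genes minus that of the primary granule genes was 3.80 ± 0.66 in Ad-FAT10 Pema livers, 3.07 ± 1.04 in Ad-FAT10 CMC livers, 2.00 ± 0.49 in Ad-CTRL Pema livers and 1.94 ± 0.54 in Ad-CTRL CMC livers (SD, n = 4 each). The same difference for the secondary granule genes was 2.84 ± 1.20, 2.30 ± 1.42, 2.75 ± 0.41 and 3.44 ± 0.97 in the same order of groups. These are descriptions with no test, and they depend on the prior count of 2 because Ad-CTRL livers were near 0 in most granule genes. Per kilobase of exon, S100a9 was the most abundant of the 10 in all 4 groups and S100a8 the second, at 33.4 ± 20.2 and 25.2 ± 17.6 CPM per kb in Ad-FAT10 CMC livers. Mpo was the least abundant in all 4 groups, at 0.188 ± 0.205 CPM per kb in Ad-FAT10 CMC livers. Prtn3 stood at 6.55 ± 6.47 CPM per kb in Ad-FAT10 CMC livers, where Ngp was at 8.27 ± 8.97 and Retnlg at 4.97 ± 2.87 CPM per kb, and these 3 do not differ beyond their spread. In Ad-CTRL CMC livers it stood at 1.96 ± 1.39 CPM per kb, next above Csf3r at 1.37 ± 0.363 CPM per kb, again within the spread.

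The adjacent pairs behaved differently. S100a8 and S100a9 kept close to 1 count of one per count of the other, from 0.637 to 1.18 S100a8 counts per S100a9 count over all 16 livers. Prtn3 counts per Elane count ran from 2.75 to 69.0 over the 15 livers with an Elane count. The highest ratio was that of Ad-FAT10 CMC replicate 4, with 138 Prtn3 and 2 Elane counts. Over 159 bases Prtn3 overlaps Plppr3, and over 512 bases Mpo overlaps Gm11505, each on the opposite strand in the GENCODE M21 annotation. How the counting treated strand is not given in the sources used here, and counts of these partners may be shared.

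Saa1, an acute-phase protein of hepatocytes chosen for this display after its values were seen, was set beside Prtn3. Saa1 had 751, 5470, 343 and 479 CPM in Ad-FAT10 CMC livers and 84.3 to 177 CPM in Ad-FAT10 Pema livers. It had 65.4 to 107 CPM in Ad-CTRL Pema livers and 141 to 1010 CPM in Ad-CTRL CMC livers. The liver with the highest Saa1 also had the highest Prtn3, S100a8 and Ngp. Ad-FAT10 Pema replicates 3 and 4 had Ngp above that of Ad-FAT10 CMC replicates 3 and 4 with Saa1 below it. Ubd also differed among these livers, with 110 and 166 CPM in Ad-FAT10 CMC replicates 1 and 2 against 339 and 330 CPM in Ad-FAT10 CMC replicates 3 and 4, so the livers with the most granule transcripts had the least Ubd of their group. The part of Saa1 or Ubd in the results was not tested.

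**Figure D4:**
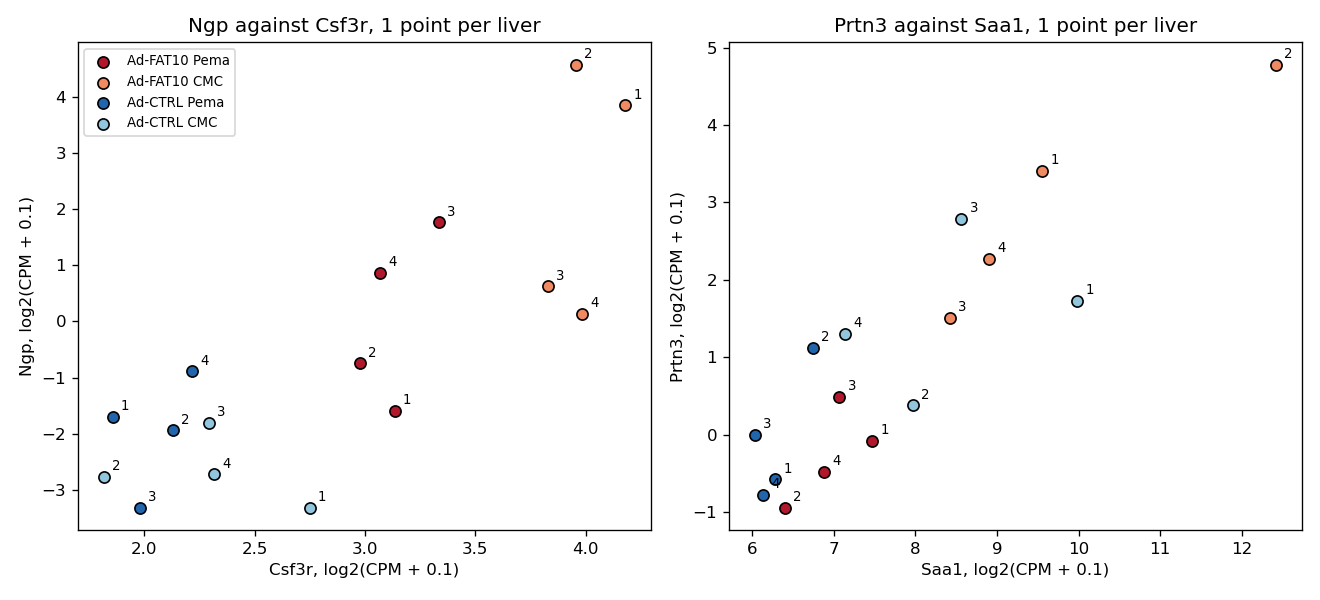
Level of Ngp against Csf3r (left) and of Prtn3 against Saa1 (right), both axes as log2(CPM + 0.1), 1 point per liver, with the replicate number beside it. At similar Csf3r, Ad-FAT10 CMC replicates 1 and 2 have 14.3 and 23.7 CPM of Ngp and replicates 3 and 4 have 1.44 and 0.995 CPM.

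Other genes of mature neutrophils, 19 listed and 16 tested, moved with the mature 4 under CMC. Of the 16, 14 were called higher in Ad-FAT10 CMC than in Ad-CTRL CMC livers and none lower, beside 22.5% higher and 20.2% lower of all tested genes, with a median log2 change of 1.90 against -0.01 over all tested genes. Asprv1, a skin and neutrophil protease, rose by 3.22 ± 0.33 (adjusted p = 1.77e-06), Fpr2, a formyl peptide receptor, by 1.93 ± 0.19 (adjusted p = 1.42e-06) and C5ar1, the receptor for C5a, by 1.87 ± 0.22 (adjusted p = 5.05e-06). Under pemafibrate 14 were higher and 1, Hdc, lower, beside 21.2% and 20.5% of all tested genes.

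With pemafibrate in Ad-FAT10 livers, 7 of these 16 were called lower and 2 higher, beside 12.5% and 12.9% of all tested genes. Mxd1, a MYC antagonist, fell by 0.81 (SE 0.12, adjusted p = 5.18e-05), Padi4, which citrullinates histones in neutrophils, fell by 1.11 (SE 0.28, adjusted p = 0.0066) and Asprv1 fell by 0.99 (SE 0.25, adjusted p = 0.00725). Cxcr1, a chemokine receptor counted in this list, went the other way, with 86, 59, 55 and 68 counts in Ad-FAT10 Pema livers against 2, 2, 1 and 1 counts in Ad-FAT10 CMC livers (5.23 ± 0.45, adjusted p = 1.46e-07). It also rose in Ad-CTRL livers, with 8, 17, 25 and 12 counts with Pema against 1, 1, 0 and 2 counts with CMC (3.81 ± 0.58, adjusted p = 6.38e-05). The related receptor Cxcr2 fell by 1.30 in Ad-FAT10 livers (SE 0.36, adjusted p = 0.0127), so these 2 receptors of the list changed in opposite directions. In Ad-CTRL livers 2 of the 16 genes were called higher with pemafibrate and 1 lower, beside 16.2% and 14.4% of all tested genes. The lower one was Mxd1, which fell there by 0.50 (SE 0.12, adjusted p = 0.00441).

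Of 13 other granule genes, 10 were tested and 9 were called higher in Ad-FAT10 CMC than in Ad-CTRL CMC livers, with none lower and a median of 1.85, beside 22.5% higher and 20.2% lower of all tested genes. Cd177, a neutrophil surface and granule protein, rose by 3.12 ± 0.41 (adjusted p = 1.89e-05), Chil3, a chitinase-like protein also listed among monocyte markers, by 2.98 ± 0.32 (adjusted p = 2.15e-06) and Srgn, the granule proteoglycan serglycin, by 1.37 ± 0.18 (adjusted p = 1.57e-05). With pemafibrate in Ad-FAT10 livers 5 of the 10 were lower and none higher, beside 12.5% lower and 12.9% higher of all tested genes. They were Mmp8 (-1.93 ± 0.46, adjusted p = 0.00435), Cd177 (-1.31 ± 0.32, adjusted p = 0.00545), Lcn2 (-1.80 ± 0.49, adjusted p = 0.0103), Mmp9 (-1.22 ± 0.33, adjusted p = 0.0109) and Chil3 (-0.89 ± 0.27, adjusted p = 0.021). Lcn2, which hepatocytes also express, was the only one of the 10 called in Ad-CTRL livers, where it fell by 1.67 (SE 0.52, adjusted p = 0.0198).

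Of 8 listed genes of granulocyte precursors, Ms4a3, Fcnb and Ctsg were near 0 and too low to test, and 5 were tested. The summed level of the 8 was 10.3 to 12.6 CPM in Ad-FAT10 Pema livers, 16.1 to 18.7 CPM in Ad-FAT10 CMC livers, 8.86 to 12.6 CPM in Ad-CTRL Pema livers and 13.8 to 20 CPM in Ad-CTRL CMC livers, mostly from Cebpe and Kit. Ms4a3, a gene of granulocyte-monocyte progenitors, had 5, 3, 1 and 0 counts in Ad-FAT10 CMC livers and 0 in the other 12 livers. Ctsg, encoding cathepsin G of the primary granule, had 4, 12, 2 and 0 counts in Ad-FAT10 CMC livers and 0 to 4 elsewhere. The most Ctsg counts were in Ad-FAT10 CMC replicate 2 and the most Ms4a3 counts in Ad-FAT10 CMC replicate 1, while those of Ly6g were highest in both of these livers. Ly6g is a surface protein of mouse neutrophils, with 10, 17, 2 and 2 counts in Ad-FAT10 CMC livers and 0 to 2 in the other groups. Of the 5 tested, Myb (2.14 ± 0.54, adjusted p = 0.00434) and Gfi1 (1.28 ± 0.38, adjusted p = 0.0116) were higher in Ad-FAT10 CMC than in Ad-CTRL CMC livers, beside 22.5% of all tested genes. Cebpe, encoding the C/EBP factor of secondary granule genes, did not follow those genes, at -0.28 (adjusted p = 0.236) in that comparison, and with pemafibrate it fell by 1.22 in Ad-FAT10 livers (SE 0.19, adjusted p = 0.000151) and by 2.07 in Ad-CTRL livers (SE 0.21, adjusted p = 5.93e-07).

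Among 10 ligands that drive neutrophil production or recruitment, 5 were tested. Of all tested genes 22.5% were called higher in Ad-FAT10 CMC than in Ad-CTRL CMC livers, and 12.5% lower with pemafibrate in Ad-FAT10 livers. Tnf (1.64 ± 0.25, adjusted p = 7.26e-05), Il1b (1.26 ± 0.25, adjusted p = 0.000703) and the chemokine Cxcl2 (1.44 ± 0.39, adjusted p = 0.00636) were higher in Ad-FAT10 CMC than in Ad-CTRL CMC livers. With pemafibrate Il1b fell by 0.82 in Ad-FAT10 livers (SE 0.24, adjusted p = 0.017). The chemokine Cxcl1 fell by 1.64 in Ad-FAT10 livers (SE 0.58, adjusted p = 0.0472) and by 2.17 in Ad-CTRL livers (SE 0.61, adjusted p = 0.0108). Csf3, encoding G-CSF, the ligand of Csf3r, had 0 or 1 count in every liver, which allows a level of up to about the 3-count limit given above.

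Of 6 calprotectin receptors and adaptors, all tested, Cd14 (2.36 ± 0.16, adjusted p = 3.49e-08) and Tlr4 (1.13 ± 0.29, adjusted p = 0.00526) were higher in Ad-FAT10 CMC than in Ad-CTRL CMC livers, and Ly96, Myd88, Ager and Bsg were not called. Of all tested genes 22.5% were called higher and 20.2% lower in this comparison. Among 12 other S100 genes, 6 were tested. S100a6 (1.75 ± 0.19, adjusted p = 2.77e-06) and S100a11 (2.56-fold, adjusted p = 0.000209) were higher and 3 were lower, among them S100a1 (-0.96 ± 0.10, adjusted p = 2.87e-06). None of these 6 was called lower with pemafibrate in Ad-FAT10 livers, while S100a10 (0.79 ± 0.15, adjusted p = 0.00068) and S100a13 (0.57 ± 0.14, adjusted p = 0.00465) rose. There 12.5% of all tested genes were called lower and 12.9% higher.

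The 7 genes of the phagocyte NADPH oxidase, shared by neutrophils and macrophages, included 6 called higher in Ad-FAT10 CMC than in Ad-CTRL CMC livers, led by Cybb (1.67 ± 0.18, adjusted p = 2.06e-06). In that comparison 22.5% of all tested genes were called higher and 20.2% lower. None of the 7 was called with pemafibrate in Ad-FAT10 livers by edgeR, the smallest adjusted p being 0.108 for Cybb. Of all tested genes 12.5% were called lower and 12.9% higher with pemafibrate in Ad-FAT10 livers. Of 11 adhesion and transmigration genes 6 were higher under CMC, led by Icam1 (1.62 ± 0.17, adjusted p = 2.17e-06), and 1, Icam1, fell with pemafibrate in Ad-FAT10 livers by 0.49 (SE 0.17, adjusted p = 0.0391). The 8 inhibitors of granule proteases ran mostly the other way, with 5 lower and 1 higher under CMC. Slpi, the secretory leukocyte protease inhibitor, was the one that rose (2.34 ± 0.40, adjusted p = 0.000198), and Serpina1d, an alpha-1-antitrypsin gene of hepatocytes, fell by 0.98 (SE 0.14, adjusted p = 3.11e-05). The Serpina1 copies are near-identical, and their reads may be split among them. With pemafibrate in Ad-FAT10 livers 6 of the 8 inhibitors were lower.

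Marker transcripts of several other blood and liver cell types differed between Ad-FAT10 and Ad-CTRL livers under CMC. In this comparison 22.5% of all tested genes were called higher and 20.2% lower. All 6 monocyte markers were called higher in Ad-FAT10 CMC than in Ad-CTRL CMC livers, with a summed level of 128 to 154 CPM against 32.3 to 59.7 CPM. The 6 Kupffer cell markers included 4 lower and 1 higher, with similar sums (266 to 393 CPM against 272 to 404 CPM) that hide larger changes of single genes. Timd4 (-3.55 ± 0.37, adjusted p = 1.74e-06), Vsig4 (-3.11 ± 0.31, adjusted p = 1.24e-06) and Clec4f (-2.89 ± 0.32, adjusted p = 3.03e-06) were lower. Cd5l was higher (0.77 ± 0.21, adjusted p = 0.00644). Of 5 T and NK cell markers 4 were higher (11.5 to 15.5 CPM against 3.65 to 7.97 CPM). All 4 B cell markers were lower (2.18 to 2.56 CPM against 4.16 to 7.89 CPM). Of 6 hepatocyte markers 4 were lower and none higher, with summed levels of 56900 to 68000 CPM in Ad-FAT10 CMC livers against 82600 to 110000 CPM in Ad-CTRL CMC livers. All 4 sinusoidal endothelial markers were lower (74.5 to 109 CPM against 139 to 202 CPM), as were 3 of 4 stellate cell markers (125 to 173 CPM against 196 to 234 CPM). Of 6 eosinophil, basophil and mast cell markers none reached the test level, and Epx, Prg2, Mcpt8, Prss34 and Cpa3 had at most 4 counts in any liver. Of 7 erythroid markers tested, Slc4a1, encoding the red cell anion exchanger, was higher (2.47 ± 0.51, adjusted p = 0.000871), with 41, 110, 20 and 38 counts in Ad-FAT10 CMC livers against 3, 11, 10 and 5 counts in Ad-CTRL CMC livers, while Alas2 and Klf1 were lower. With pemafibrate in Ad-FAT10 livers 2 of the 6 monocyte markers and none of the Kupffer, T and NK or B cell markers were called lower, beside 12.5% of all tested genes. The monocyte sum was 91.3 to 153 CPM in Ad-FAT10 Pema livers. The part of these cell types in the results was not tested.

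The genes most like the mature 4 were sought by Pearson's r over 16 livers with the mean of their scaled log2 CPM, among tested genes outside the 10. They were Padi4 (r = 0.949), Rnf138rt1 (0.947), Csnk1g1 (0.944), Rfc1 (0.941), Alpk1 (0.938), Olfml2b (0.936), Sorl1 (0.935), Chrm3 (0.934), Myh10 (0.934) and Lcn2 (0.934). The 16 livers share 4 group means, and within groups the same r was 0.366 to 0.701. Among the 10 genes themselves, r with the mature mean was 0.847 for Ngp, 0.841 for Ltf and 0.621 for Prtn3. These values describe likeness of pattern over livers that share adenovirus and drug.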

How the data were processed

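Liver RNA of 16 mice was selected for poly(A), made into dUTP libraries and read on DNBSEQ, per the labels' protocols. Each deposited file gives 1 mouse's counts by Ensembl identifier, which the authors did not normalize. The build GRCm39, the aligner STAR 2.7.6, and DESeq2 in the versions 1.36.0 and 2.11.40.6 are named in the submitters' processing notes. Which program counted the reads, and with what annotation and strand rule, is not given in the sources used here. Symbols came from GENCODE M21 (GRCm38), which matched 94.0% of identifiers, and the unmatched held 0.1% of counts. Groups and replicate numbers came from the sample titles.

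With edgeR 4.0.16 (R 4.3.3), filterByExpr chose the genes (10 counts in the smallest group), which were scaled by TMM and fitted with 1 mean per group over 16 libraries (12 residual degrees of freedom, which the 95% intervals use). There were 6 comparisons per gene. SE is the log2 change divided by the square root of its F statistic, so it restates the test. Log2 CPM used a prior count of 2. All 24 pairs of replicates differed beyond sampling noise (chi-square per gene 14.52 to 118.98), and none was identical. Mice are separate animals per the labels, and no batch is given, so no within-batch value could be made. Depth was 18663498 to 28898229 counts. Alternatives were DESeq2 1.42.0, other scalings, no filter, a robust fit, fits of the compared groups alone, a replicate block and left-out libraries. Named genes were the 10 genes, up to 4 genes of each list with the smallest p (1 is not reported here), and the 10 most alike. Ly6g, Cxcr2, Padi4 and Asprv1 where not among those 4, Ctsg, Ms4a3, Mmp9, Lcn2, S100a11, Csf3, Saa1 and the other genes named beyond this rule were chosen after their values were seen. The 10 genes and all lists were chosen with earlier results of these data known.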

Additional observations from a re-analysis of the deposited data

Results flagged for a closer look

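Of 40 sets of 4 livers (10 genes in 4 groups), 4 held a liver whose gap to the nearest other, over the range of the set, passed Dixon's 95% critical value, where chance gives about 1 in 20. In Ad-FAT10 Pema livers, S100a9 was 7.95 CPM in replicate 1 and 4.73 to 5.04 CPM in the other 3. Mpo was 0.326 CPM in Ad-FAT10 Pema replicate 3, from 11 counts, and 0 to 0.0325 CPM in the other 3. Mpo was 0.103 CPM in Ad-CTRL CMC replicate 4, from 2 counts, and 0 in the other 3, a gap below the 3-count limit. Ltf was 0.352 CPM in Ad-CTRL Pema replicate 4, from 8 counts, and 0.0518 to 0.0997 CPM in the other 3. The high levels in Ad-FAT10 CMC replicates 1 and 2 were not marked in this way, since 2 high livers of 4 leave no single gap.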

How the results depend on the processing

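Over all alternatives, values were counted for each of the 7 tested genes in each comparison and fit. Of these values 970 kept direction and side of the threshold, 35 lost a call, 28 gained one and 9 changed sign. They include fits without a library that was in neither group compared, so the 970 do not measure how stable a call is. In sign, without Ad-FAT10 CMC replicates 1 and 2, left out together after their counts were seen, Ngp for Pema in Ad-FAT10 was 0.30. Prtn3 under Pema was 0.09 with library totals, and -0.65 to 0.32 over left-out libraries. Ltf for Pema in Ad-CTRL was 0.02 with the block and -1.07 to 0.28 over left-out libraries. The cause was not tested. Without Ad-FAT10 CMC replicates 1 and 2, genes lower for Pema in Ad-FAT10 were 3 of the 7 tested, and 2178 of all genes were called in either direction. Without also Ad-FAT10 Pema replicate 3, chosen likewise, these numbers were 4 and 2276. Genes of the 7 tested lower for Pema in Ad-CTRL were 1, not 0, with library totals, no filter, the compared groups alone and both of these removals. They were 0 to 2 over left-out libraries. Genes higher in Ad-FAT10 Pema than in Ad-CTRL CMC were 2 in the robust fit and 2 to 5 over left-out libraries, and genes lower were 0 to 1. Interaction calls over all genes were 119 with DESeq2, 93 with no filter, 48 with 3 libraries left out and 11 to 36 over left-out libraries, against 23. With a prior count of 0.5 the mature minus primary difference was 4.55 in Ad-FAT10 Pema and 2.53 in Ad-CTRL CMC livers, and the mature minus secondary difference 3.43 in Ad-CTRL Pema livers. The replicate numbers do not pair the mice (24 same-number pairs, r -0.172 to 0.172, 3 over 0.1). With a replicate block, 6 of the 7 tested were called higher for Ad-FAT10 under CMC, Prtn3 being lost (1.51, adjusted p = 0.058). For Pema in Ad-FAT10 6 of the 7 were called lower, Ngp being lost (-2.25, adjusted p = 0.122). Over all tested genes 6074 were then called in either direction for Ad-FAT10 under CMC and 3603 for Pema in Ad-FAT10.

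Depth limits the granule genes: Ad-CTRL livers held 0 to 10 Ngp, Ltf, Camp or Mpo counts each, so their fitted changes are uncertain in size. Whole liver separates no cell types.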
